A study of Capsicum annuum with 4 samples.

Results

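Green fruit genes that were shut off in mature Chiltepin fruits were examined. Chiltepin is a wild pepper (Capsicum annuum var. glabriusculum), whose small fruits are green at 20 days after anthesis (DAA) and red at 68 DAA. The genes were chosen by their own counts: at least 20 CPM (counts per 1000000 counts on genes of that library) in both libraries at 20 DAA, and a raw count of at most 3 in both libraries at 68 DAA. By this rule 190 of 35884 gene models were shut off, which is 2.13% of the 8907 genes that reached 20 CPM in both libraries at 20 DAA. Pepper homologs of tomato ripening genes that the study tabulated were to be left out. The copy of that table used here lists 38 genes, which are not the study's whole set of candidates, and 0 of these 38 met the rule. Since the counts of both stages chose the genes, their levels and fold changes are given as a description, with no test.

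Both groups were wild type, untreated, grown in a greenhouse, and each had 2 libraries. Each library held RNA pooled from 6 whole fruits, that is pericarp, placenta and seeds together, and the second library of a stage came from another collection of fruits. The green libraries held 24771773 (replicate 1) and 21370765 (replicate 2) counts on genes, and the mature libraries 12139415 (replicate 1) and 26130664 (replicate 2). At these depths 3 counts equal 0.247 CPM in replicate 1 and 0.115 CPM in replicate 2 at 68 DAA, so a gene at or under 3 counts was not detectable above these levels rather than shown to be absent. Marker genes followed the labels. GLK2, a transcription factor of chloroplast development in tomato fruit, had 3435 and 3407 counts at 20 DAA against 4 and 5 at 68 DAA, while the pectin-degrading enzyme gene PG2 had 3 and 0 counts at 20 DAA against 103119 and 201559 at 68 DAA.

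A green pepper fruit photosynthesises, enlarges, and fills its seeds and placenta, and these programmes close as chloroplasts turn into chromoplasts and the seeds mature. A transcript can fall because the cells that make it stop transcribing the gene, or because a tissue present in the young fruit is gone or diluted later. In RNA of whole fruits, fewer cells of a type and less RNA per cell cannot be told apart. The deposited annotation pairs no names with its identifiers, and the RefSeq gene table used here holds none of them, so the genes are described by level, coding exons and place on the CM334 genome, version 1.6, without a name or role. The annotation models coding exons only, so exon numbers and lengths exclude UTRs.

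The shut-off genes were of moderate to high level in green fruit. Their mean CPM at 20 DAA ran from 21.0 to 554, with a median of 45.8. Of the 190 genes, 102 lay between 20 and 50 CPM and 35 were above 100 CPM. Together they held 351258 counts in replicate 1 and 297711 in replicate 2 at 20 DAA, or 1.42% and 1.39% of each library. At 68 DAA they held 165 and 237 counts in all. Summed over the genes, this is 13.6 CPM in replicate 1 (95% exact Poisson interval 11.6 to 15.8, which covers counting error only) and 9.07 CPM in replicate 2 (7.95 to 10.3). The summed level was 1240-fold lower at 68 DAA, and for single genes, set against the mean level of 3 counts per library, the decrease was at least 116-fold to at least 3060-fold. The limit of 3 counts caps what a gene can hold in these sums, and it caps the deeper replicate 2 at a lower CPM.

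Few of the genes were wholly without counts at 68 DAA. No count in either library was found for 33 genes, and 81 genes had at least 1 count in both. In replicate 1, 84 genes had 0 counts, 61 had 1, 31 had 2 and 14 had 3. In replicate 2, which is 2.15 times as deep, 58 genes had 0 counts, 61 had 1, 37 had 2 and 34 had 3. By the quasi-likelihood test of edgeR (FDR under 0.01 and at least 4-fold) all 190 were called lower at 68 DAA, beside 18.7% of all 17160 genes tested, a count that the rule itself fixes. Of all genes tested 8.22% were called higher, and 4.32% had at most 3 counts in both libraries at 68 DAA. Among the 8907 genes with at least 20 CPM in green fruit, 18.9% were lower and 2.4% higher.

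**Figure D1:**
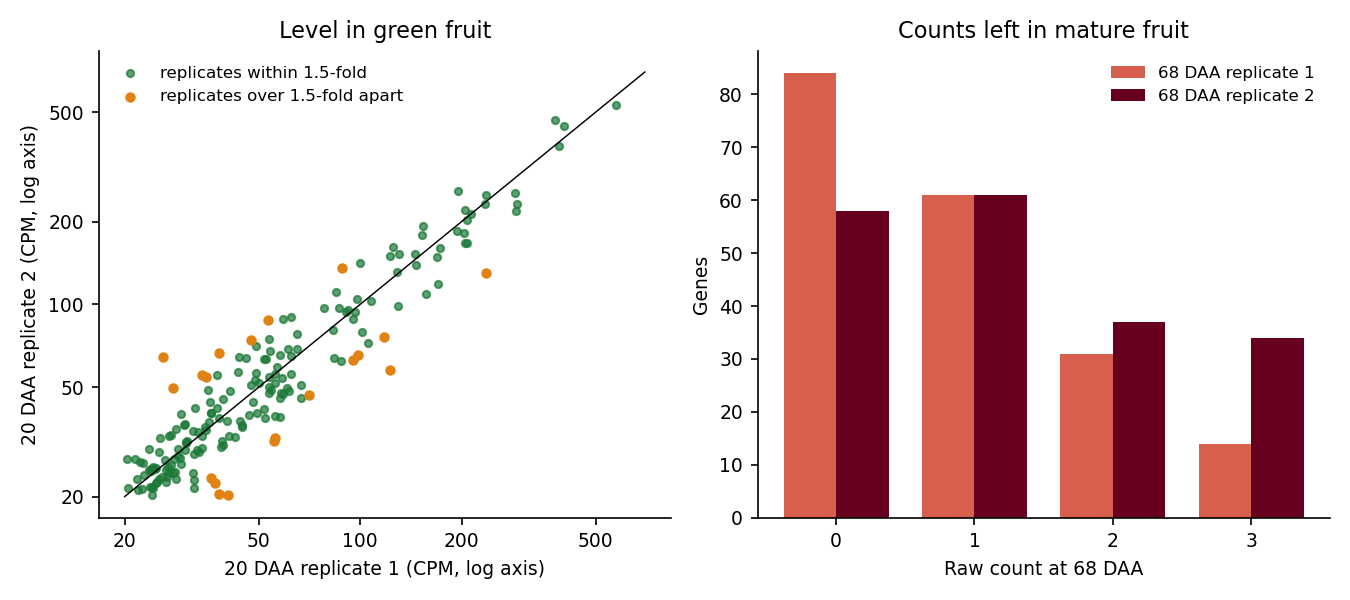
Left, CPM of the 190 shut-off genes in replicate 1 against replicate 2 at 20 DAA (log axes, 1 point per gene, line of equality), with the 20 genes whose replicates differed by more than 1.5-fold in orange. Right, number of these genes at each raw count from 0 to 3 in the 2 libraries at 68 DAA; 84 and 58 genes are at 0.

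The gene with the highest level was CA.PGAv.1.6.scaffold220.58, on chromosome 3 from 11222201 to 11235151 (minus strand), whose 1317 bp of coding sequence are split over 14 exons. It had 575 and 533 CPM in replicates 1 and 2 at 20 DAA (554 ± 29.8, SD, n = 2) and 2 counts in each library at 68 DAA, so that it was at least 3060-fold lower. It is also among the 15 shut-off genes with 10 or more coding exons. Next came a gene of 7 coding exons on chromosome 1, from 253508128 to 253514318, with 404 and 447 CPM at 20 DAA and 3 and 1 counts at 68 DAA. A gene of 4 coding exons on chromosome 6, from 239742651 to 239744652, had 388 and 375 CPM at 20 DAA and 1 and 2 counts at 68 DAA. These 3 genes were at least 2109-fold lower at 68 DAA, and their green replicates lay within 1.11-fold of each other.

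A second gene of the same stretch of chromosome 3, from 11695536 to 11696598 with 2 coding exons, had the fifth highest level. It had 288 and 255 CPM at 20 DAA and a single count in each library at 68 DAA. Per kilobase of coding sequence, the order changed. CA.PGAv.1.6.scaffold497.46, on chromosome 2 from 163205874 to 163206581, came first with 1114 and 1384 CPM per kilobase at 20 DAA, since its 4 coding exons add up to 339 bp. Its level was 378 and 469 CPM, with 1 and 2 counts left at 68 DAA. The 4 highest genes by this measure all had short coding sequences, of 312 to 369 bp. Over all shut-off genes the level at 20 DAA had a median of 45.8 CPM, compared with 71.4 CPM in the 1496 genes that also reached 20 CPM in green fruit and were called lower but kept more counts, and 49.1 CPM in the 7007 that were not called. Per kilobase the medians were 55.6, 61.4 and 39.1 CPM. In these libraries the shut-off genes lay below the genes not called in CPM and above them per kilobase. The rule used these levels, and for the same fold change its cap of 3 counts leaves out the more abundant genes. The order is therefore a description that the selection shapes.

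The shut-off genes were compact. They had a median of 3 coding exons and a median span, from the first to the last coding base, of 1930 bp. Retained means here only that more than 3 counts were left in a library at 68 DAA, and not that much expression was kept. Of the genes of green fruit, 171 had a highest count of 4 to 10 at 68 DAA. The genes that were lower but retained had 4 exons and 3229 bp, the genes of green fruit that were not called had 6 exons and 5672 bp, and the 214 that were higher at 68 DAA had 5 exons and 4146 bp. Coding length differed less, with medians of 1025, 1251, 1278 and 1320 bp in the same order. The difference in span was therefore mostly one of introns, which added up to a median of 755 bp per shut-off gene, 1756 bp per retained gene and 4210 bp per gene that was not called. The exon structure was not used to choose the genes. Its differences are given without a test, beside the same values for the other genes of green fruit.

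Of the shut-off genes 50, or 26.3% (exact 95% interval 20.2% to 33.2%), had a single coding exon. The share was 15.0% (13.2% to 16.9%) in the retained genes and 8.93% (8.28% to 9.63%) in those not called. In the genes called higher it was 14.0% (9.66% to 19.4%), close to the retained genes. At the other end, 15 shut-off genes (7.89%) had 10 or more coding exons, compared with 18.3% of the retained genes and 30.4% of those not called. The intervals treat genes as independent and cover counting error only. Over all 35884 gene models, most of them low or silent in these libraries, 24.6% had 1 coding exon and the median was 3, so the shut-off genes stood close to the annotation as a whole and apart from the other genes of green fruit. The 86 genes with the opposite pattern, at most 3 counts at 20 DAA and at least 20 CPM in both libraries at 68 DAA, also had few exons, with a median of 2 and 30.2% with a single one.

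**Figure D2:**
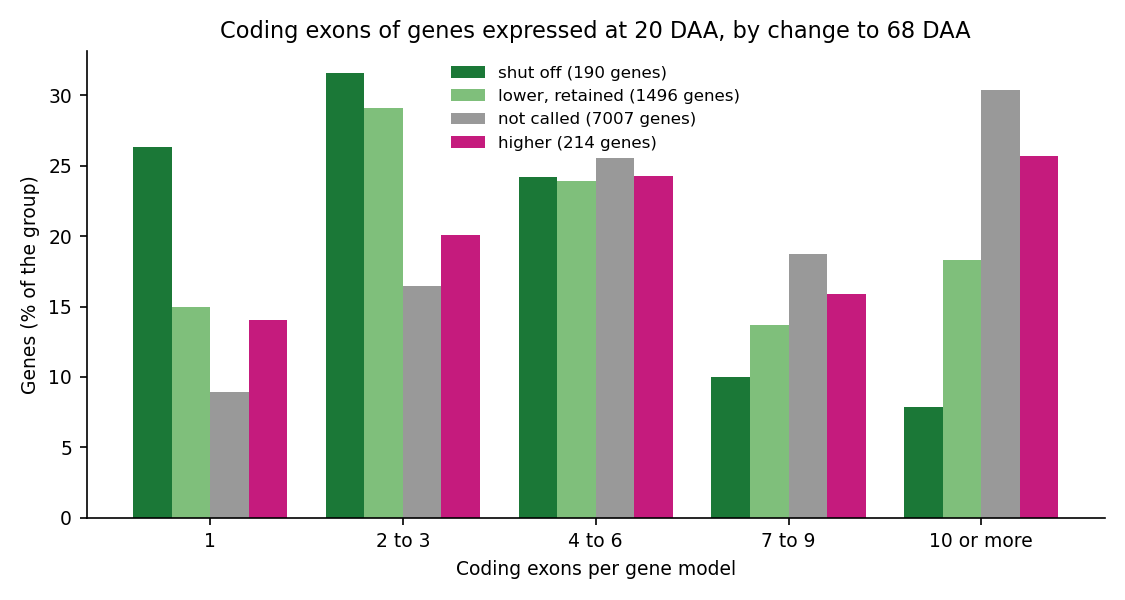
Share of genes (y axis, percent of each group) by number of coding exons (x axis) for the 4 groups of genes with at least 20 CPM in both libraries at 20 DAA: shut off, lower and retained, not called, and higher at 68 DAA. Of the shut-off genes 26.3% had 1 coding exon and 7.89% had 10 or more, whereas of the genes not called 8.93% and 30.4% did.

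The difference was also seen within classes of level. Among genes with a mean of 20 to 50 CPM at 20 DAA, 29.4% of 102 shut-off genes, 16.4% of 529 retained genes and 10.3% of 3567 genes that were not called had a single coding exon. From 50 to 100 CPM the shares were 20.8% of 53, 13.8% of 399 and 6.97% of 2066 genes. Above 100 CPM they were 25.7% of 35 shut-off genes, 14.4% and 8.37%. For genes called higher the share was 19.7% of 122 genes from 20 to 50 CPM, 6.12% of 49 from 50 to 100 CPM and 6.98% of 43 above 100 CPM. No intervals were computed for these classes. The median span of shut-off genes was 1947 bp in the lowest of 3 level classes and 1953 bp in the highest. When the genes of green fruit were ordered by the level left at 68 DAA, the median span rose at most steps, from 2275 bp where less than 0.5% of the level was left to 3156 bp at 0.5% to 1%, 2992 bp at 1% to 5%, 3593 bp at 5% to 25%, 5403 bp at 25% to 100%, and 6021 bp where the level rose. The first of these classes held 370 genes, 186 of them shut off, so the order partly restates the rule's own split.

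**Figure D3:**
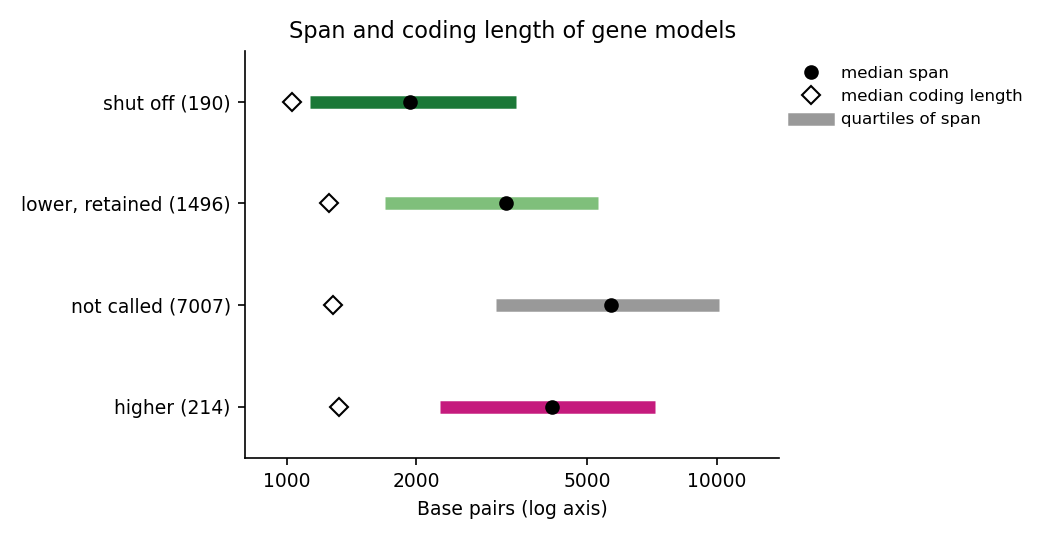
Quartiles (bars) and median (circles) of gene span, and median coding length (diamonds), in bp on a log axis, for the same 4 groups with the number of genes in parentheses. Median spans are 1930 bp for shut-off, 3229 bp for retained, 5672 bp for not called and 4146 bp for higher genes, while median coding lengths lie between 1025 and 1320 bp.

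Within the shut-off genes, level went little with exon number. The median was 44.6 CPM in the 50 genes with 1 coding exon, 52.4 CPM in the 46 with 4 to 6, and 44.7 CPM in the 15 with 10 or more. Per kilobase of coding sequence the same classes had medians of 75.7, 49.5 and 23.6 CPM, in step with coding lengths of 588, 1050 and 1857 bp. The gene with the most coding exons, 23, lay on chromosome 8 from 138038743 to 138043556. It had 27.4 and 26.0 CPM at 20 DAA and 0 and 1 counts at 68 DAA. The gene with the longest span, 19524 bp, lay on chromosome 3 from 230594143 to 230613666 and had 28.1 and 27.5 CPM at 20 DAA and 1 count in each library at 68 DAA. A long or intron-rich structure was thus not absent from the set.

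The 2 libraries of green fruit, from separate collections, differed by more than 1.5-fold in a larger share of the shut-off genes than of the other genes. The rule used these values, so the shares are a description. In the shut-off genes the higher replicate exceeded the lower by a median of 1.16-fold, and by more than 1.5-fold in 20 of 190 genes (10.5%). Of the retained genes 2.94% differed as much, and of those not called 0.485%. The order was the same from 20 to 50 CPM, where 9.80%, 1.70% and 0.308% did. Above 100 CPM 2 of 35 shut-off genes did, which is 5.71%, beside 3.70% of the retained genes. No library was higher throughout, since 98 of the 190 genes were higher in replicate 1. The widest gap was that of a gene with a single coding exon on chromosome 6, from 202850957 to 202851343, with 26.0 CPM in replicate 1 and 64.2 CPM in replicate 2 at 20 DAA, and 0 and 1 counts at 68 DAA.

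**Figure D4:**
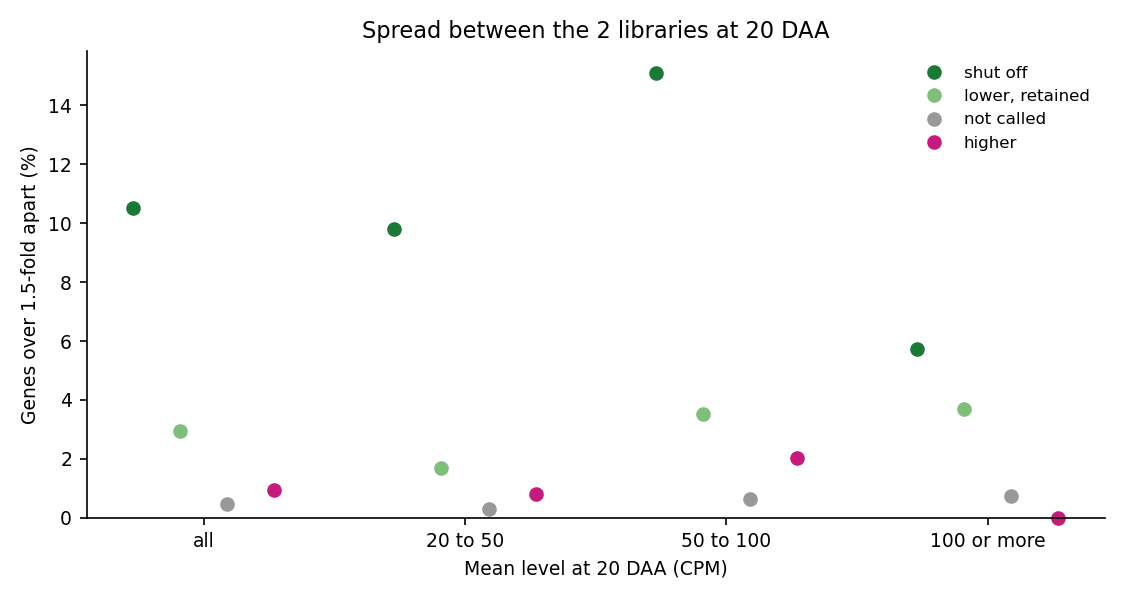
Percent of genes (y axis) whose 2 libraries at 20 DAA differed by more than 1.5-fold, for all genes and by mean level at 20 DAA in CPM (x axis), in the 4 groups, 1 point per group and class. Shut-off genes are at 10.5% and retained genes at 2.94% over all levels.

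The shut-off genes were spread over all 12 chromosomes. Chromosome 1 held 30 of them, chromosome 2 held 22, chromosome 3 held 21 and unplaced scaffolds held 22, while chromosome 8 held 3. On chromosome 1 the share was 15.8% (exact 95% interval 10.9% to 21.8%) compared with 11.4% of the other genes of green fruit, and on chromosome 8 it was 1.58% (0.327% to 4.54%) compared with 4.37%. In all 13 places compared, the share of the other genes of green fruit lay within the interval of the shut-off genes. The strands were even, with 95 genes on each. Of the 168 genes placed on chromosomes, 100 (59.5%, 51.7% to 67.0%) lay within 10% of the annotated length from one of the chromosome's ends, compared with 57.5% of retained genes and 51.6% of all other genes of green fruit.

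A few of the genes were close neighbours. In 3 cases a pair lay side by side with no gene model between, so that 6 genes (3.16%, exact 95% interval 1.17% to 6.75%) had a shut-off gene next to them, compared with 1.19% of the other genes of green fruit. With up to 5 gene models between, 22 genes (11.6%, 7.40% to 17.0%) had one, compared with 6.92%. Of the retained genes 1.87% had a shut-off gene next to them, and 7.49% had one with up to 5 gene models between. Both of these shares lay within the intervals of the shut-off genes. Both genes of a pair are counted, so these intervals, which treat genes as independent, are too narrow. The closest pair lay on chromosome 9 on the plus strand with 127 bp between the models. The first, from 259637356 to 259638750, had 101 and 79.4 CPM at 20 DAA with 1 and 0 counts at 68 DAA, and the second, from 259638878 to 259639947, had 130 and 99.0 CPM with 0 and 3 counts. In both, replicate 1 was the higher at 20 DAA, by 1.28-fold and 1.31-fold. Whether these 2 models belong to a single transcript was not tested, and they are counted here as separate genes.

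Another adjacent pair on chromosome 9 had the same structure in each gene. The models, from 10590651 to 10591693 on the minus strand and from 10602018 to 10603070 on the plus strand, each had 3 coding exons of 585, 141 and 114 bp in the order of transcription. The first had 27.9 and 49.5 CPM at 20 DAA and the second 53.2 and 87.9 CPM, so that replicate 2 was the higher in both, by 1.78-fold and 1.65-fold. At 68 DAA they had 1 and 1 and 0 and 3 counts. Exon lengths shared in order are what copies of a gene often keep, and reads that fit several places were set aside in the counting, so the level of each gene of such a pair is uncertain. The third pair lay on chromosome 10 on the minus strand. It had 26.4 and 25.1 CPM at 20 DAA in the gene from 209695076 to 209700154 and 36.1 and 40.4 CPM in the gene from 209715178 to 209716666, with at most 3 counts at 68 DAA. With 2 gene models between, the chromosome 6 gene from 239742651 described above had a partner from 239694484 to 239697305, with 291 and 218 CPM at 20 DAA and 3 and 1 counts at 68 DAA. Each had 4 coding exons, of which the last 2 were 65 and 300 bp in both.

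Of the 140 shut-off genes with at least 2 coding exons, 13 (9.29%, exact 95% interval 5.04% to 15.4%) had the same ordered exon lengths as another gene model, compared with 6.01% of the other genes of green fruit. Of the retained genes 6.68% did, and both of these shares lay within the interval. Among the counterparts of the 13 genes, 16 were not shut-off genes by the rule, and 5 of these had fewer than 10 counts in every library. The cases that follow were chosen after their values were seen. On chromosome 7, the gene from 392034 to 392666, sixth in level among the shut-off genes, had 2 coding exons of 64 and 257 bp. It had 291 and 232 CPM at 20 DAA and 2 counts in each library at 68 DAA. On the same chromosome, 4 more models between 3509147 and 4199367 had these exon lengths. The most abundant had 3565 and 5324 CPM at 20 DAA and 55 and 110 counts at 68 DAA, the next 1061 and 761 CPM and 11 and 7 counts, the third 37.3 and 33.8 CPM and 7 and 19 counts, and the fourth had no count. These 3 models with counts were each called lower by the quasi-likelihood test of edgeR, and kept more than 3 counts in a library at 68 DAA.

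On chromosome 2, 3 models in a row had 4 coding exons of 78, 225, 132 and 294 bp, and only the middle one was shut off. The middle gene, from 138839402 to 138840442, had 29.4 and 39.8 CPM at 20 DAA and 2 and 3 counts at 68 DAA. The model before it had 14.0 and 17.3 CPM at 20 DAA and 9 and 26 counts at 68 DAA. The model after it had 243 and 259 CPM at 20 DAA and 45.5 and 66.4 CPM at 68 DAA, and was not called by the quasi-likelihood test of edgeR. A shut-off gene of chromosome 12, from 246370344 to 246372421 with 3 coding exons of 285, 194 and 364 bp, had 30.2 and 36.6 CPM at 20 DAA and 1 count in each library at 68 DAA. Its counterpart on chromosome 7, from 2180923 to 2182675, had the opposite pattern, with 2 and 0 counts at 20 DAA and 184 and 311 counts at 68 DAA, and was called higher by the same test. Whether these models are copies of one another was not tested, since their sequences were not used here.

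The genes next to the shut-off genes give a measure that the rule did not use. Of 371 gene models beside a shut-off gene, 199 passed the filter of the stage contrast (average log2 CPM of at least 1). By the quasi-likelihood test of edgeR, 52 of these (26.1%, exact 95% interval 20.2% to 32.8%) were called lower at 68 DAA and 14 (7.04%) higher. Among all 16970 tested genes other than the shut-off ones, 17.8% were lower and 8.31% higher. The median log2 fold change between the stages was -0.39 in the neighbours and -0.03 in all tested genes without the shut-off ones. The genes beside retained genes were lower in 24.7% (22.7% to 26.8%), and those beside genes not called in 16.8% (15.9% to 17.6%), so the share beside shut-off genes lay close to that beside retained genes. Genes on the strand of the shut-off gene next to them were lower in 33 of 105 cases, and the others in 19 of 94. The lower neighbours lay a median of 13525 bp from the shut-off gene and the other tested neighbours 14592 bp. These medians do not show the closest models. Tested same-strand neighbours 18, 107, 165, 554 and 695 bp away were all called lower, with log2 fold changes of -9.05 to -11.4. This range of distances was not set in advance. Of the next same-strand neighbours, at 1258, 1301, 1383, 1529 and 1597 bp, only that at 1301 bp was called lower. Tested neighbours on the opposite strand 412 to 803 bp away were not called lower, and those at 422 and 675 bp were called higher. The opposite-strand neighbour at 1051 bp was called lower, with a log2 fold change of -2.10. Whether such close same-strand models belong to one transcript was not tested. Only 1 of the 52 lower neighbours had the ordered exon lengths of its shut-off gene.

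**Figure D5:**
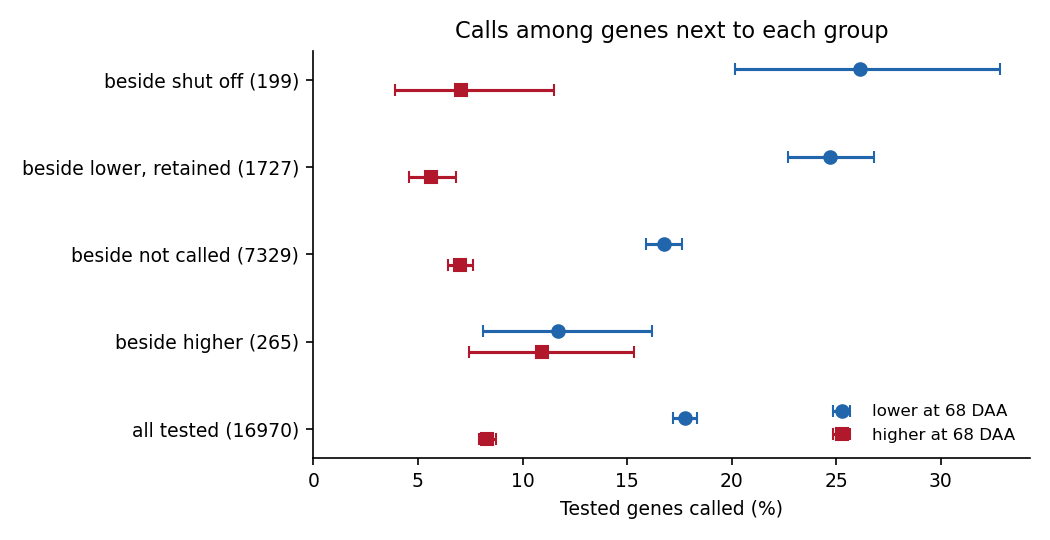
Percent of tested genes called lower (circles) and higher (squares) at 68 DAA (x axis) among genes directly beside each group and among all tested genes other than the shut-off ones, with exact 95% binomial intervals and the number tested in parentheses. The genes beside shut-off genes were lower in 26.1% and all tested genes in 17.8%.

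The rule cut through a continuous range of levels. The 3 shut-off genes nearest to 20 CPM had 20.2 to 20.4 CPM in their lower library at 20 DAA, and the 3 nearest genes left out had 19.89 to 19.98 CPM with at most 3 counts at 68 DAA. In the other direction, 5 shut-off genes had 3 counts in both libraries at 68 DAA, and 38 genes of green fruit had a highest count of 4. The most abundant of these 38, on chromosome 3 from 18490972 to 18493485 with 2 coding exons, had 1119 and 644 CPM at 20 DAA and 4 and 3 counts at 68 DAA. GLK2 missed the rule with 4 and 5 counts. NSGT1, a glycosyltransferase that affects aroma in tomato, had no count at 68 DAA, but 439 counts in replicate 1 at 20 DAA, which is under 20 CPM. Of the 4 libraries, the deeper one at 68 DAA moved the number of shut-off genes most when left out. Without that replicate 2 the rule took 297 genes, and without one of the other libraries 211 to 218, while other limits of CPM or count moved the number further, from 33 to 375.

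Of the 38 tabulated homologs of tomato ripening genes used here, 32 were tested, and 8 were lower and 6 higher at 68 DAA by the quasi-likelihood test of edgeR. Among all genes tested, 18.7% were lower and 8.22% higher. The study chose these genes for their part in fruit development and ripening, and its other candidates were not used here. Among the 8 lower genes NSGT1 alone had at most 3 counts in both libraries at 68 DAA, and the other 7 had 4 to 614 counts per library at that stage.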

How the data were processed

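The authors trimmed reads with Trimmomatic 0.36, aligned them to the CM334 genome, version 1.6, with HISAT2 2.1.0, counted them per gene with HTSeq-count 0.11.0 (union mode) and deposited raw counts. Whether HTSeq counted by strand is not given in the sources used here. The deposited gene models hold coding exons, and every coding length is a multiple of 3. HTSeq categories that name no gene (31.7% to 38.2% of entries) were left out. The libraries come from separate collections of fruits.

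The genes and lists were chosen with earlier results of these data known. CPM was computed on the summed gene counts. The stage contrast used edgeR 4.0.16 in R 4.3.3 (TMM, average log2 CPM of at least 1, quasi-likelihood test, Benjamini-Hochberg FDR under 0.01, at least 4-fold) and was tested on simulated data. With 2 against 2 libraries an exact two-sided permutation test cannot go below 0.333. Named genes were the 6 highest by level, the 4 highest per kilobase, adjacent pairs, extremes of structure and replicate ratio, genes at the limits and stage markers. Most are given by position. Alternatives were DESeq2 1.42.0, other limits, scalings and filters, a replicate block and each library left out. Intervals (scipy 1.17.1) and floors of 3 counts cover counting error only.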

Additional observations from a re-analysis of the deposited data

How the results depend on the processing

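The number of shut-off genes followed the limits of the rule. It was 375 with 10 CPM and 72 with 50 CPM as the limit at 20 DAA, and 33 with no count and 359 with up to 10 counts allowed at 68 DAA. It was 178 with TMM-scaled libraries, 250 with both libraries at 68 DAA thinned to the same total, and 211 to 297 with each library left out in turn. The share with a single coding exon stayed between 20.9% and 27.4% under the 5 alternatives tried. The share with a shut-off gene near was 11.6% with up to 5 gene models between. Without a fold limit the stage contrast called 9904 genes instead of 4615, and with each library left out 4151 to 4806. Scaling by library totals moved the median log2 fold change of tested genes from -0.04 to -0.31. Lower neighbours numbered 95 of 391 with the nearest 2 on each side, 33 of 105 on the same strand, and 47 to 59 with each library left out. All 190 genes were called lower under all 9 alternatives of the contrast, a count that the rule itself fixes. In the main setting 18.7% of all tested genes were lower.

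The labels do not say whether libraries with the same replicate number are paired across stages. The replicate differences of the 2 stages correlated at 0.0251 over 17160 genes. With the replicate number as a block, 4665 genes were called, and 54 neighbours were lower. Depth at 68 DAA limits what can be called shut off, since 3 counts are 0.247 CPM in replicate 1.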
